A study of Homo sapiens with 8 samples.

Results

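The cytoplasmic translation factors are the proteins that bring the ribosome to an mRNA, move it along the reading frame and release the finished protein. They were taken here as 53 listed genes, matched by symbol in both count tables. All 53 were among the 17927 genes of the RNA-seq table, and 52 were among the 14019 genes of the Ribo-seq table, where EIF3C is not listed. All libraries came from the neuroblastoma cell line SH-SY5Y, an established human line. The knockdown group, labelled shRPS29, was depleted of RPS29, a protein of the small ribosomal subunit, and the control group was labelled shCONT. Each group had 2 libraries for RNA-seq and 2 for Ribo-seq, which sequences the mRNA fragments that ribosomes protect from nuclease. The labels give neither the knockdown construct nor the time after its delivery, and nothing says whether replicates came from separate cultures, so p-values measure the spread between these libraries, which may be technical.

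Initiation begins when the small subunit, loaded with initiator tRNA by eIF2 and held by the large complex eIF3, is recruited to the capped mRNA by the eIF4 factors and scans to a start codon. Elongation factors then deliver aminoacyl-tRNA and move the ribosome, and release factors end the chain. Many elongation factor mRNAs, some eIF3 subunit mRNAs and all ribosomal protein mRNAs belong to the TOP class, whose transcripts start with a C followed by a run of pyrimidines. Their translation is known to follow mTORC1 activity, and the protein LARP1 is known to bind and stabilise them. Here 13 of the 53 genes were taken as known TOP mRNAs: the elongation factors EEF1A1, EEF1A2, EEF1B2, EEF1D, EEF1G and EEF2, the eIF3 subunits EIF3E, EIF3F and EIF3H, and EIF4B, PABPC1, TPT1 and RACK1.

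The first bases of the transcripts are shown because this stretch defines the TOP class, to which most of the genes with lower RNA belonged. Each line gives 10 bases before the annotated start and the first 20 bases of the transcript, read on the strand of the gene from the RefSeq promoter table of GRCh38.p14. Capitals mark the C within 5 bases of the start and the pyrimidines that follow it, where at least 4 follow. Lines without capitals hold no such run there.
EIF4B, chr12:53006446-53006475, plus strand: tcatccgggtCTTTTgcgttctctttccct
TPT1, chr13:45341164-45341193, minus strand: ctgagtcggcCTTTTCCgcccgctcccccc
EEF1A1, chr6:73521013-73521042, minus strand: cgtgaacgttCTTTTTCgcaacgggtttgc
EEF2, chr19:3985444-3985473, minus strand: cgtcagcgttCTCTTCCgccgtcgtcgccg
RACK1, chr5:181243887-181243916, minus strand: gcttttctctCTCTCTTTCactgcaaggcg
EIF3F, chr11:7987327-7987356, plus strand: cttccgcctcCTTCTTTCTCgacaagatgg
EEF1G, chr11:62573872-62573901, minus strand: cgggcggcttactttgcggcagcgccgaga
EIF3D, chr22:36529147-36529176, minus strand: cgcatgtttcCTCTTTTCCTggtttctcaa
EIF3K, chr19:38619178-38619207, plus strand: tttccaccacCTCTTCCTgttcccgtcctt
EIF5, chr14:103334227-103334256, plus strand: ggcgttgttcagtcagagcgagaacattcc
EIF6, chr20:35284698-35284727, minus strand: tggtaagctggtgtgaggggaacctgggag
In EIF4B, TPT1, EEF1A1, EEF2, RACK1 and EIF3F, which are TOP genes, the C stood on the first annotated base. EEF1G, a TOP gene too, held no such run at its annotated start. EIF3D and EIF3K, which are outside the TOP list, also started with a C and a run, and EIF5 and EIF6 did not. Among genes not shown, EIF2S3, EIF2A, EIF3M and EIF4A2, outside the list too, started with a C and a run.

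RNA-seq libraries held 19156104 and 17539104 counts in the knockdown and 18125164 and 18539460 in the control. Ribo-seq libraries held 2630463 and 4375971 counts in the knockdown and 2899655 and 3235621 in the control. RPS29 RNA was at 7.53 and 6.46 CPM (TMM-scaled counts relative to library size) in the knockdown libraries, against 137 and 160.1 CPM in the controls, which fits the labels. Of 8 noradrenergic neuroblastoma markers, 7 averaged over 1 CPM, and the list summed to 4608 and 4481 CPM in the knockdown and 4242 and 4389 CPM in the control. Fibroblast markers summed to 278 and 334 CPM in the knockdown and 281 and 257 CPM in the control. Epithelial markers summed to 7.23 and 8.88 CPM in the knockdown and 9.02 and 11.4 CPM in the control. The 4 blood cell markers in the table, led by CD68, summed to 11.2 and 14.5 CPM in the knockdown, above 6.71 and 7.86 CPM in the control. Their part in the results was not tested. In bulk libraries of this kind, fewer cells of a type and less RNA per cell cannot be told apart.

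The first question was which translation factor mRNAs differ in level between knockdown and control cells. The RNA of 12 of the 53 genes fell, that of 15 rose and 26 were not called (edgeR quasi-likelihood test, adjusted p below 0.05 over all 14723 genes tested). Over all genes tested, 16.3% were called lower and 14.4% higher, or 30.7% in all. Both knockdown libraries lay below both controls in 23 of the 53 genes and above them in 23, against 32.9% and 32.3% of all genes tested. The calls were spread unevenly over the roles. The elongation factors and the TOP genes were called lower or not called, the release factors and the eIF2, eIF2B and start-codon factors were called higher or not called, and the eIF3 complex was divided. The median log2 fold change was -0.44 over the 13 TOP genes, 0.12 over the 40 other genes, and 0.01 over all genes tested. Called with a log2 change of at least 0.5 in size were 7 genes lower (EIF4B, TPT1, EIF3L, EEF1G, EIF3E, EEF1A1 and EIF3F) and 2 higher (EIF5 and EIF6). Over all genes tested these shares were 7.14% lower and 5.11% higher.

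**Figure D1:**
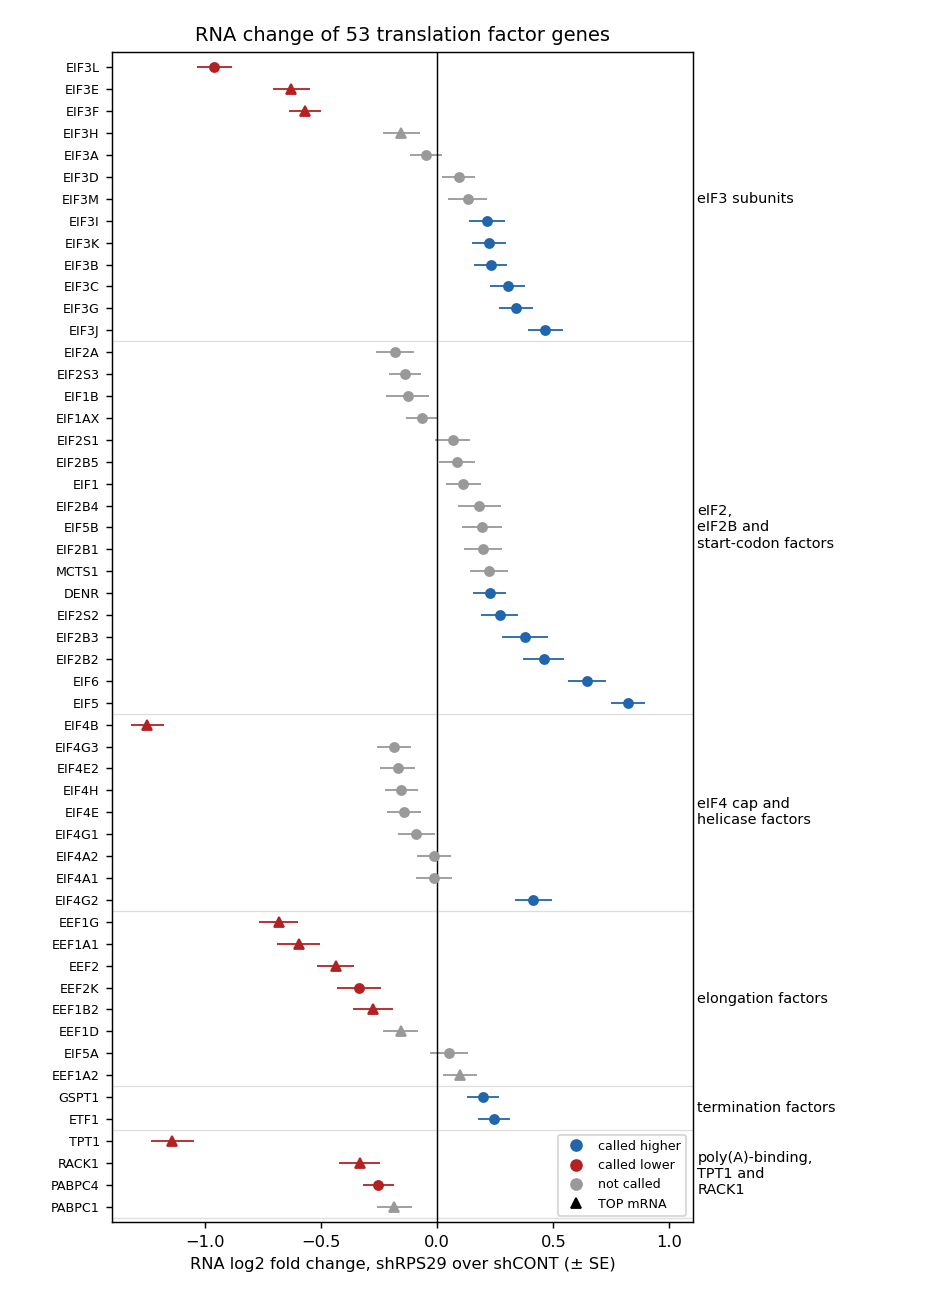
RNA log2 fold change (knockdown over control, ± SE from edgeR, 2 libraries each) of the 53 genes on the horizontal axis, with the genes ordered by value within their role down the page; triangles are TOP genes and colours give the call. EIF4B (-1.25) and TPT1 (-1.14) lie farthest to the left and EIF5 (0.82) farthest to the right.

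As a class, these genes took 3.32 and 3.13% of all RNA-seq counts in the knockdown libraries, against 3.76 and 3.77% in the controls. EEF1A1 alone took 0.903 and 0.822% in the knockdown against 1.25 and 1.23% in the control. The other 52 genes together took 2.41 and 2.30% in the knockdown against 2.51 and 2.53% in the control. The lower RNA share in the knockdown was thus made up in large part by 1 gene. In Ribo-seq the class took 0.232 and 0.416% of counts in the knockdown libraries, against 0.576 and 0.514% in the controls. These shares were far below the RNA shares in every library.

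The 13 eIF3 subunits, which hold the small subunit ready for the mRNA, did not move as one. Of them 3 fell (EIF3L, EIF3E and EIF3F), 6 rose (EIF3B, EIF3C, EIF3G, EIF3I, EIF3J and EIF3K) and 4 were not called (EIF3A, EIF3D, EIF3H and EIF3M), with a median log2 fold change of 0.13. EIF3L (chromosome 22, positions 37849419 to 37889407, GRCh38.p14) encodes a peripheral subunit that pairs with EIF3K. It had 311 and 282 CPM in the knockdown libraries, against 569 and 586 CPM in the controls (log2 fold change -0.96, SE 0.0753, edgeR adjusted p = 5.99e-07). The groups did not overlap, and both knockdown libraries were at about the middle of the range between zero and the controls. EIF3E, known also as INT6, and EIF3F belong with EIF3H to the TOP genes of the complex. EIF3E had 209 and 182 CPM in the knockdown libraries, against 290.0 and 315 CPM in the controls (log2 fold change -0.63, SE 0.0797, edgeR adjusted p = 4.33e-05). EIF3F (chromosome 11, positions 7987337 to 8001852) had 217 and 213 CPM in the knockdown libraries, against 322 and 317 CPM in the controls (log2 fold change -0.57, SE 0.0682, edgeR adjusted p = 2.53e-05). In both genes each knockdown library lay below each control. EIF3H, the third TOP gene of the complex, was at 262 and 226 CPM in the knockdown against 270.3 and 272 CPM in the control, lower in both knockdown libraries but not called (log2 fold change -0.15, edgeR adjusted p = 0.152).

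Among the subunits that rose, EIF3J, a loosely bound subunit that affects mRNA entry, had 125 and 119 CPM in the knockdown libraries, against 90.9 and 85.4 CPM in the controls (log2 fold change 0.46, SE 0.0751, edgeR adjusted p = 3.18e-04). EIF3G, an RNA-binding subunit near the mRNA entry side, had 321 and 294 CPM in the knockdown against 250.1 and 237 CPM in the control (log2 fold change 0.34, SE 0.0730, edgeR adjusted p = 0.00276). Neither gene overlapped between the groups. EIF3C had 1515 and 1478 CPM in the knockdown against 1195 and 1230.3 CPM in the control (log2 fold change 0.30, SE 0.0760, edgeR adjusted p = 0.00740), but it has a near-identical copy, EIF3CL, which was also called higher (0.62), so how reads were divided between them is uncertain. The other increases were those of the scaffold subunit EIF3B (0.23), EIF3K (0.22) and EIF3I (0.21). EIF3A, the largest subunit, was at -0.05 (SE 0.0694), EIF3D, a cap-binding subunit, at 0.09 and EIF3M at 0.13, none of them called.

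**Figure D2:**
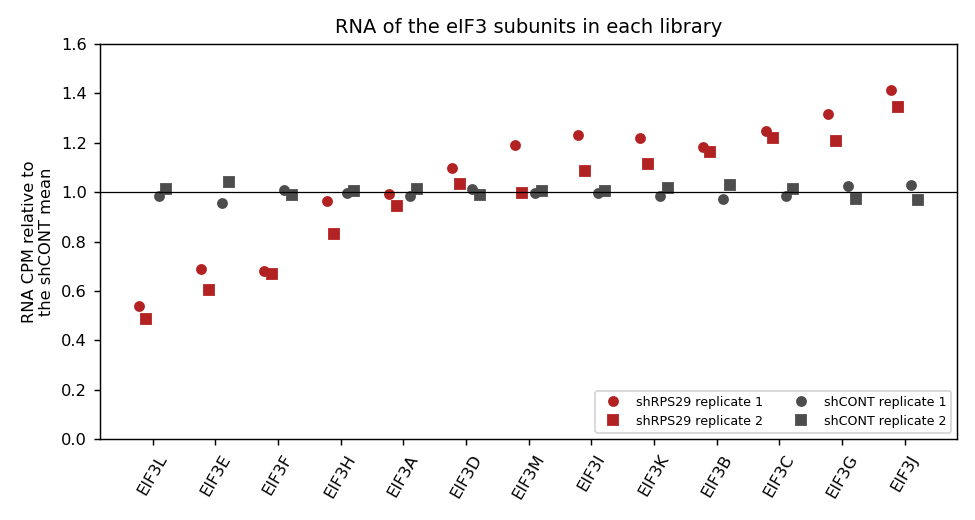
RNA of each eIF3 subunit in each library on the vertical axis, as CPM divided by the mean of the 2 control libraries, with the subunits in order of fold change; red symbols are knockdown and grey symbols control libraries. EIF3L, EIF3E and EIF3F lie below 1 and EIF3J, EIF3G and EIF3C above it in both knockdown libraries.

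Ratios of 2 genes within a library do not depend on how libraries are scaled. The ratio of EIF3L to EIF3J counts was 2.50 and 2.37 in the knockdown libraries, against 6.25 and 6.85 in the controls. The ratio of EIF3F to EIF3G was 0.676 and 0.724 in the knockdown libraries, against 1.29 and 1.33 in the controls, and that of EIF3E to EIF3G was 0.650 and 0.620 in the knockdown libraries, against 1.16 and 1.33 in the controls. In each pair the knockdown ratio was 0.371 to 0.534 times that of the control, and the groups did not overlap. The pairs were chosen after the values were seen, and no test was made of them.

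Of the 17 genes of eIF2, eIF2B and start-codon selection, 6 rose, 0 fell and 11 were not called, with a median log2 fold change of 0.19. EIF5, which makes eIF2 hydrolyse its GTP once a start codon is found, rose most (chromosome 14, positions 103334237 to 103345025). It had 368 and 351 CPM in the knockdown libraries, against 195 and 212 CPM in the controls (log2 fold change 0.82, SE 0.0729, edgeR adjusted p = 1.76e-06). EIF6, which keeps the large subunit from joining too early and is needed to build it, had 334 and 284 CPM in the knockdown libraries, against 199 and 196 CPM in the controls (log2 fold change 0.65, SE 0.0807, edgeR adjusted p = 3.86e-05). Neither overlapped with the control. Both knockdown libraries were high in each gene, with replicate 1 the higher.

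Of the 5 subunits of eIF2B, the factor that reloads eIF2 with GTP and is held back when eIF2 is phosphorylated, 2 rose. EIF2B2 had 84.6 and 72.1 CPM in the knockdown against 55.6 and 58.6 CPM in the control (log2 fold change 0.46, SE 0.0895, edgeR adjusted p = 0.00134), and EIF2B3 had 33.2 and 32.9 CPM in the knockdown against 24.2 and 26.7 CPM in the control (log2 fold change 0.38, SE 0.101, edgeR adjusted p = 0.0107). Neither overlapped between the groups. EIF2B1 (0.20), EIF2B4 (0.18) and EIF2B5 (0.08) were not called. Of the 3 subunits of eIF2 itself, the beta subunit EIF2S2 rose (0.27, edgeR adjusted p = 0.0174), while the alpha subunit EIF2S1 was at 0.07 and the gamma subunit EIF2S3 at -0.14, not called. DENR rose (0.23, adjusted p = 0.0249). Its partner MCTS1, with which it recycles small subunits and allows reinitiation, was at a like value but not called (0.22, adjusted p = 0.0521). EIF1 (0.11), its paralog EIF1B (-0.13), EIF1AX (-0.07), EIF2A (-0.18) and EIF5B (0.19), which joins the subunits, were not called either.

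The eIF4 factors bind the cap and unwind the leader. Of these 9 genes 1 fell, 1 rose and 7 were not called. EIF4B, which stimulates the helicase eIF4A, had the lowest log2 fold change of all 53 genes (chromosome 12, positions 53006456 to 53042215). It had 232 and 238 CPM in the knockdown libraries, against 551 and 567 CPM in the controls (log2 fold change -1.25, SE 0.0709, edgeR adjusted p = 4.19e-08), from 4524 and 4322 counts in the knockdown, against 9787 and 10173 in the control. The groups were far apart, and the knockdown libraries differed from each other by less than the controls did. EIF4H, which also stimulates eIF4A, was at 532 and 565 CPM in the knockdown against 605 and 616 CPM in the control (-0.15, not called). The ratio of EIF4B to EIF4H counts was 0.436 and 0.422 in the knockdown libraries, against 0.911 and 0.921 in the controls. EIF4G2, known as DAP5, is a relative of the scaffold eIF4G that does not bind the cap protein. It had 1636 and 1549.8 CPM in the knockdown libraries, against 1169 and 1222 CPM in the controls (log2 fold change 0.41, SE 0.0779, edgeR adjusted p = 0.00100), with no overlap. The cap-binding protein EIF4E (-0.14), its relative EIF4E2 (-0.17), the scaffolds EIF4G1 (-0.09) and EIF4G3 (-0.19) and the helicases EIF4A1 (-0.01, SE 0.0771) and EIF4A2 (-0.01, SE 0.0712) were not called.

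Of the 8 elongation factor genes 5 fell, 0 rose and 3 were not called, with a median log2 fold change of -0.31. EEF1A1, which carries aminoacyl-tRNA to the ribosome, was among them. It had 8863 and 7958 CPM in the knockdown libraries, against 12723 and 12714 CPM in the controls (log2 fold change -0.60, SE 0.0918, edgeR adjusted p = 2.16e-04). EEF1G, a structural subunit of the exchange factor that reloads eEF1A, had 1407 and 1237 CPM in the knockdown libraries, against 2113 and 2135 CPM in the controls (log2 fold change -0.68, SE 0.0843, edgeR adjusted p = 3.46e-05). EEF2, which moves the ribosome by a codon, had 2973 and 2929 CPM in the knockdown libraries, against 4015 and 3979 CPM in the controls (log2 fold change -0.44, SE 0.0809, edgeR adjusted p = 8.83e-04). Each knockdown library lay below each control in all 3 genes. EEF1B2, the exchange subunit itself, was lower (-0.28, edgeR adjusted p = 0.0263), and so was EEF2K, the kinase that inhibits eEF2 (-0.34, adjusted p = 0.0145). EEF1D (-0.16) and EIF5A (0.05), the hypusine-bearing factor that helps at difficult peptide bonds, were not called. EEF1A1 has many processed copies in the genome, so its counts depend on how reads with several matches were treated, which is not given in the sources used here.

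The eEF1A paralog EEF1A2, the form found in neurons and muscle and listed as TOP, was not called and had 763 and 733 CPM in the knockdown libraries, against 688 and 711 CPM in the controls (log2 fold change 0.10, SE 0.0733, edgeR adjusted p = 0.353). The ratio of EEF1A1 to EEF1A2 counts was 11.6 and 10.9 in the knockdown libraries, against 18.5 and 17.9 in the controls, without overlap. For the helicase paralogs the ratio of EIF4A1 to EIF4A2 was 8.81 and 7.71 in the knockdown libraries, against 8.26 and 8.23 in the controls, and the groups overlapped. For the poly(A)-binding paralogs the ratio of PABPC1 to PABPC4 was 4.05 and 4.15 in the knockdown libraries, against 3.92 and 3.90 in the controls. No test of these ratios was made.

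Both release factor genes rose by small amounts. ETF1, which reads the stop codon, had 276 and 267 CPM in the knockdown libraries, against 225 and 233 CPM in the controls (log2 fold change 0.24, SE 0.0687, edgeR adjusted p = 0.0144). GSPT1, its GTPase partner, had 254 and 264 CPM in the knockdown libraries, against 224 and 228 CPM in the controls (log2 fold change 0.20, SE 0.0682, edgeR adjusted p = 0.0390). The groups did not overlap in either gene, and the differences were small beside those of EIF5 or EIF4B.

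TPT1, or TCTP, is a small abundant protein whose mRNA is a classic TOP mRNA (chromosome 13, positions 45333471 to 45341183). It had 821 and 684 CPM in the knockdown libraries, against 1613 and 1706 CPM in the controls (log2 fold change -1.14, SE 0.0914, edgeR adjusted p = 6.96e-07). Both knockdown libraries were far below both controls, and replicate 2 was the lower. RACK1, a scaffold protein on the small subunit, had 1455 and 1238 CPM in the knockdown libraries, against 1660.4 and 1735 CPM in the controls (log2 fold change -0.33, SE 0.0882, edgeR adjusted p = 0.00990). PABPC4 was lower (-0.25, adjusted p = 0.0112) and PABPC1, the main cytoplasmic poly(A)-binding protein, was not called (-0.19, adjusted p = 0.0740).

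Counting over the TOP genes, 9 of 13 fell, 0 rose and 4 were not called (EIF3H, EEF1A2, EEF1D and PABPC1). Outside them 3 of 40 fell (EIF3L, EEF2K and PABPC4), 15 rose and 22 were not called. For comparison, ribosomal protein mRNAs, which are the bulk of the TOP class, had medians of -0.54 over 31 small-subunit genes other than RPS29 and -0.50 over 47 large-subunit genes. The TOP translation factors ranged from -1.25 to 0.10, with EIF4B and TPT1 at the lower end and EEF1A2 at the upper end.

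The annotated starts were compared with these calls. A C within 5 bases of the start followed by at least 4 pyrimidines, read on the strand of the gene alone, was found in 6 of 8 TOP genes with a promoter in the RefSeq table, in 50 of 62 ribosomal protein genes (80.6%) and in 19.7% of all 35116 promoters. Of the translation factors outside TOP, 12 of 35 (34.3%) held such a run. By RNA call, it was found in 7 of 9 translation factors that fell, 7 of 21 that were not called and 4 of 13 that rose. No test was made of these shares. The 2 genes that fell and held no run were EEF1B2 and EEF1G. Those that rose and held a run were EIF3C, EIF3J, EIF3K and EIF4G2, and in EIF3C, as in EEF2K among the genes that fell, the C stood 5 bases before the start. Promoters were matched for 43 of the 53 genes, and EIF3A, EIF3E, EIF3G, EIF3H, EIF3L, EIF2S2, EEF1A2, EEF1D, PABPC1 and PABPC4 were not among them. The share in all promoters was 32.5% with 10 bases either side and 7.13% with at least 6 pyrimidines, and that in the TOP genes was 75.0% and 62.5%. A run at an annotated start is a feature of the sequence and not a mapped start in these cells.

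**Figure D3:**
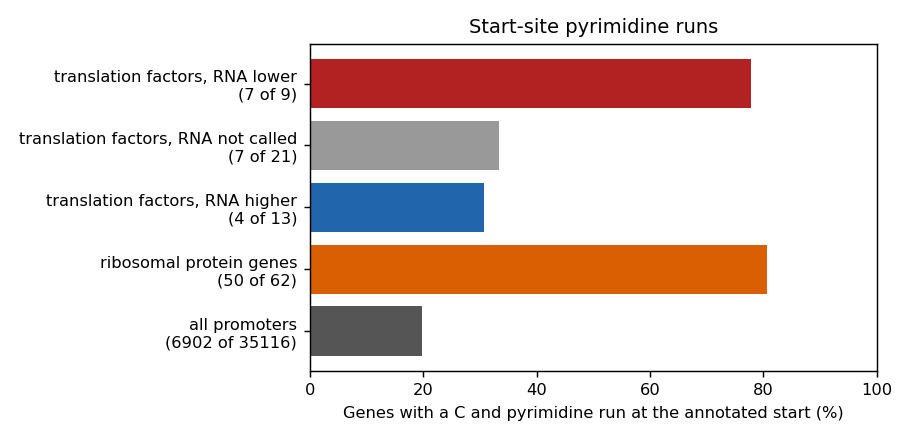
Share of genes (horizontal axis, percent) whose annotated start has a C within 5 bases followed by at least 4 pyrimidines, for translation factors by RNA call, ribosomal protein genes and all promoters, with the counts beside each bar. The run was found in 7 of 9 translation factors with lower RNA and in 4 of 13 with higher RNA.

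Some of these calls rest on the spread of 4 libraries. Without knockdown replicate 1 and 2 there were 19 and 16 genes lower and 13 and 23 higher, and without control replicate 1 and 2 there were 7 and 8 lower and 5 and 6 higher. Over all genes tested, the shares lower were 17.3 and 19.0% without a knockdown library and 10 and 9.85% without a control, and the shares higher were 15 and 18.1% and 8.09 and 8.15%. Each such fit leaves 1 group with a lone library, which is assumed to vary like the other group, so the calls also reflect which group gives the spread. The decreases of EIF4B, TPT1, EIF3L, EEF1G, EIF3E, EEF1A1 and EIF3F and the increases of EIF5, EIF6, EIF2B2 and EIF3J were called in each of these 4 fits, while those of RACK1, EEF2, EEF1B2, PABPC4, EIF2S2, EIF3B, EIF3C, EIF3I, EIF3K, ETF1, GSPT1 and DENR were called in neither fit that left out a control. Tested against a 1.5-fold change, EIF4B, TPT1 and EIF3L were lower and EIF5 was higher, against 1.13% lower and 0.469% higher over all genes tested.

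Regulators and modifiers of these factors, a list of 45 other genes, were called higher in 10 and lower in 4 of 44 tested. Over all genes tested the shares were 14.4% higher and 16.3% lower. The median log2 fold change of the list was 0.03. PDCD4, which inhibits the helicase eIF4A, had 63.3 and 60.4 CPM in the knockdown libraries, against 91.0 and 90.9 CPM in the controls (log2 fold change -0.56, SE 0.0767, edgeR adjusted p = 8.74e-05). EEF2KMT, a methyltransferase of eEF2, had 42.3 and 40.0 CPM in the knockdown libraries, against 24.3 and 26.9 CPM in the controls (log2 fold change 0.68, SE 0.0986, edgeR adjusted p = 1.26e-04). Neither gene overlapped between the groups. The eIF2 kinases EIF2AK1 (0.01), EIF2AK2 (0.08), EIF2AK3 (-0.05) and EIF2AK4 (-0.0039) and the TOP-binding protein LARP1 (-0.10) were not called, and the cap-protein inhibitor EIF4EBP1 rose (0.24, adjusted p = 0.0407).

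The second question was whether ribosome footprints on these mRNAs differ. Of 51 translation factor genes tested in Ribo-seq, 1 fell, 0 rose and 50 were not called, and 7 (13.7%) had an unadjusted p below 0.05, against 23.1% of all genes tested. Over all 11853 genes tested, 0.607% were called lower and 7.96% higher, or 8.57% in all. With the scaling used, the median log2 fold change was -0.52 over the 51 genes and 0.04 over all genes tested. Negative values were found in 38 of the 51 genes and in 5775 of all 11853. These medians depend on the scaling. Scaled over genes of at least 10 RNA CPM alone, the median over all genes tested was 0.30. ETF1 then moved from -0.26 to 0.00064 and EIF5 from -0.37 to -0.13. Ribosomal protein genes had like medians, of -0.51 over 30 small-subunit genes other than RPS29 and -0.47 over 44 large-subunit genes. By role, the median was -0.66 over 12 eIF3 subunits, -0.36 over 26 other initiation factors and -0.26 over 9 elongation and release factors, and it was -0.25 over 12 TOP genes and -0.55 over the 39 others. Without knockdown replicate 1 the order turned, with -0.43 over the TOP genes and -0.24 over the others, and over all 4 such fits the medians lay between -0.76 and -0.15 for the TOP genes and -1.09 and -0.24 for the others. In 24 of the 51 both knockdown libraries lay below both controls and in 2 above them, against 26.7% and 29.0% of all genes tested. With a median SE of 0.586 on the log2 scale, against 0.0760 in RNA-seq, footprint changes of the size seen in RNA were mostly within the error of the Ribo-seq fit. Some genes with few footprints had a larger SE, such as EIF2S2 (1.06) and EIF4B (0.920). Genes with many, such as EIF4G1 (0.672) and RACK1 (0.632), did not have a smaller SE than ETF1 (0.546). ETF1 had 59 and 106 footprint counts in the knockdown libraries, against 93 and 111 in the controls.

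EIF3F was the 1 gene called. It had 14 and 31 footprint counts in the knockdown libraries, against 92 and 125 in the controls, or 5.82 and 7.78 footprint CPM in the knockdown, against 27.4 and 37.9 CPM in the control (log2 fold change -2.25, SE 0.615, edgeR adjusted p = 0.0311). Both knockdown libraries were far below both controls. Its call was lost without any single Ribo-seq library (adjusted p = 0.125 and 0.0728 without knockdown replicate 1 and 2, and 0.0759 and 0.296 without control replicate 1 and 2), while its log2 fold change stayed between -2.55 and -2.02. Scaled over genes of at least 10 RNA CPM alone it was -1.99 (adjusted p = 0.0589). EIF1AX, which helps scanning, had the next smallest p, with 49 and 106 footprint counts in the knockdown libraries, against 193 and 264 in the controls (log2 fold change -1.55, SE 0.549, edgeR adjusted p = 0.0932). The groups did not overlap, but the gene was not called, and it holds the small RNA gene SCARNA9L. EIF5 and EIF6, whose RNA rose, were not called in footprints. EIF5, which holds the snoRNA gene SNORA28, had 129 and 444 footprint counts in the knockdown libraries, against 398 and 311 in the controls (log2 fold change -0.37, SE 0.560, edgeR adjusted p = 0.760), with overlap between the groups. EIF6 had 163 and 544 footprint counts in the knockdown libraries, against 591 and 496 in the controls (log2 fold change -0.68, SE 0.564, edgeR adjusted p = 0.525), without overlap after scaling.

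The knockdown libraries differed from each other. Relative to the control mean, the 51 genes had a median footprint log2 ratio of -0.99 in knockdown replicate 1 and -0.27 in replicate 2, and -0.02 and 0.02 in control replicate 1 and 2. EIF4G1, which holds the snoRNA gene SNORD66, had 782 and 3352 footprint counts in the knockdown libraries, against 3073 and 2885 in the controls, so that knockdown replicate 1 stood apart from the other 3 libraries. Of the 51 genes, 16 hold a snoRNA, miRNA or other small RNA gene within their span, which can add reads to a footprint count where counting ran over whole genes. Those 16 were at -1.15 and -0.23 in knockdown replicate 1 and 2, and the other 35 at -0.96 and -0.36. With knockdown replicate 1 or 2 left out, the median over the tested genes of the class was -0.30 and -1.06.

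**Figure D4:**
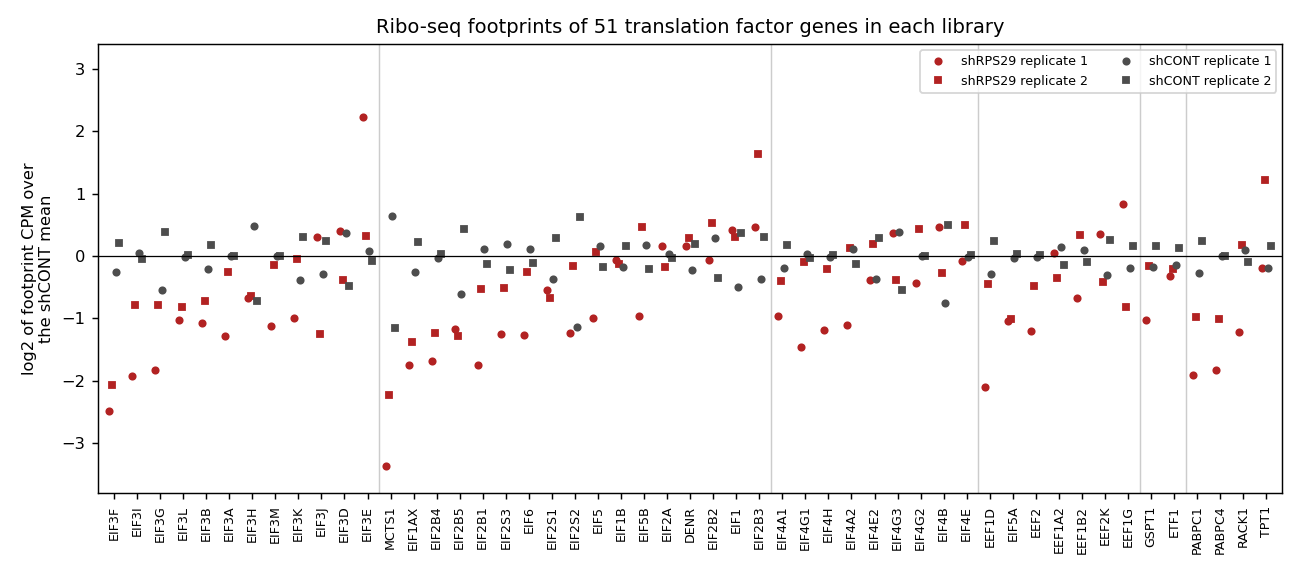
Footprints of each gene in each library (vertical axis, log2 of CPM over the mean of the 2 control libraries), grouped by role from left to right and ordered by fold change within a role; red symbols are knockdown and grey symbols control libraries. Knockdown replicate 1 lies lowest in most genes, and EIF3F is low in both knockdown libraries.

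Of the eIF3 subunits, EIF3E was the 1 with both knockdown libraries above both controls in footprints. It had 191 and 85 footprint counts in the knockdown libraries, against 60 and 53 in the controls (log2 fold change 1.56, SE 0.639, edgeR adjusted p = 0.149). Knockdown replicate 1 alone was high, and replicate 2 was close to the controls once scaled (79.4 and 21.3 footprint CPM in the knockdown, against 17.9 and 16.1 CPM in the control). TPT1 had 392 and 1733 footprint counts in the knockdown libraries, against 549 and 690 in the controls (log2 fold change 0.68, SE 0.614, edgeR adjusted p = 0.560). Here knockdown replicate 2 alone was high, and TPT1 holds the snoRNA gene SNORA31. MCTS1 had 3 and 11 footprint counts in the knockdown libraries, against 67 and 19 in the controls (log2 fold change -2.62, SE 0.955, edgeR adjusted p = 0.102), where 1 control was high and the knockdown counts were few.

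For long genes the footprint counts also have to be read against reads that grow with gene span. Genes with at most 0.1 RNA CPM and no small RNA inside had a median of 0.370 and 0.247 Ribo-seq counts per kb of span in the knockdown libraries, against 0.0614 and 0.0488 in the controls. At these rates EIF2B3, which spans 136 kb, would receive 50.4 and 33.6 counts in the knockdown and 8.36 and 6.64 in the control. It had 18 and 67 footprint counts in the knockdown libraries, against 14 and 22 in the controls. EIF4G3, which spans 371 kb, would receive 137 and 91.4 counts in the knockdown and 22.8 and 18.1 in the control, and had 88 and 86 footprint counts in the knockdown libraries, against 124 and 64 in the controls. Footprints at or below this level were found in 5 of the 51 genes in knockdown replicate 1 (EIF2B3, EIF2S2, MCTS1, EIF4E and EIF4G3), in 1 in knockdown replicate 2 (EIF4G3) and in 0 in the controls. For EIF3F the expected counts were 5.37 and 3.58 counts in the knockdown and 0.891 and 0.709 in the control. For EIF4B they were 13.2 and 8.82 in the knockdown and 2.20 and 1.75 in the control. EIF4B had 20 and 20 footprint counts in the knockdown libraries, against 12 and 28 in the controls. For EIF3E the expected counts were 17.6 and 11.7 in the knockdown and 2.92 and 2.32 in the control. The part of these reads in any change was not tested.

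In the regulators and modifiers, 2 of 36 genes tested rose in Ribo-seq and 0 fell, against 7.96% and 0.607% of all genes tested. DHX29, a helicase for structured leaders, had 475 and 274 footprint counts in the knockdown libraries, against 0 and 46 in the controls (log2 fold change 4.25, SE 1.04, edgeR adjusted p = 0.0170), with 29.9 and 28.1 CPM in the knockdown against 31.0 and 30.5 CPM in the control of RNA. EIF4E3, a relative of the cap-binding protein, had 33 and 68 footprint counts in the knockdown libraries, against 2 and 7 in the controls (log2 fold change 3.47, SE 0.925, edgeR adjusted p = 0.0270), and 35.3 and 23.5 counts in the knockdown and 5.86 and 4.66 in the control would be expected from its span. The knockdown counts of EIF4E3 were of the size of that background in replicate 1.

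The third question was whether footprints changed relative to RNA, which is called translational efficiency here. In the interaction model 0 of the 51 genes was called in either direction (edgeR), and 14 (27.5%) had an unadjusted p below 0.05, against 26.0% of all genes tested. By adjusted p, 0.873% of all 10648 genes tested were called lower and 3.01% higher, or 3.89% in all. DESeq2 called 7 of the 51 lower (EIF1AX, EIF2B4, EIF3B, EIF3F, EIF3I, EIF5A and MCTS1) and 2 higher (EIF3E and TPT1), and limma-voom called EIF1AX, EIF2B4 and EIF5A lower. Over all genes tested, DESeq2 called 6.34% lower and 9.53% higher, and limma-voom 1.69% and 4.65%. The smallest p in edgeR were those of EIF2B4 (log2 change -1.50, SE 0.340, edgeR adjusted p = 0.0519) and EIF3F (log2 change -1.55, SE 0.356, edgeR adjusted p = 0.0533). Footprints fitted alone had a larger SE in these genes, of 0.541 for EIF2B4 and 0.615 for EIF3F, so these p-values may be too small. EIF2B4, a subunit of eIF2B, had 57 and 128 footprint counts in the knockdown libraries, against 249 and 256 in the controls, with no overlap, and its RNA was at 68.1 and 57.5 CPM in the knockdown against 53.6 and 57.2 CPM in the control. Without knockdown replicate 2 of Ribo-seq 21 genes were called lower and 4 higher, without knockdown replicate 1 the numbers were 6 and 2, and without control replicate 1 they were 4 and 0. Over all genes tested, the shares in these 3 fits were 15% lower and 17.9% higher, 4.96% and 6.66%, and 4.34% and 8.36%. Without control replicate 2, or without any single RNA-seq library, 0 were called among all genes tested. The number of calls thus changed with single libraries.

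**Figure D5:**
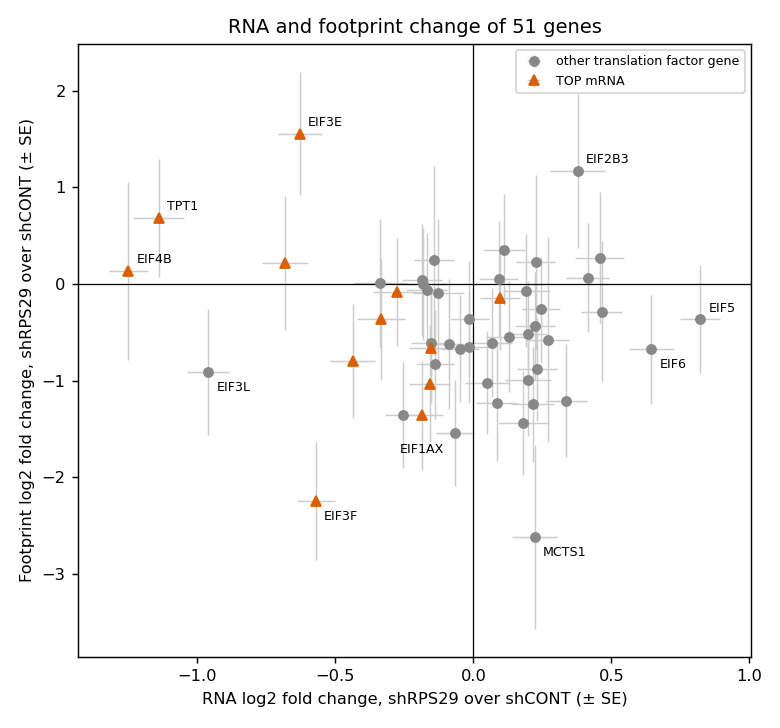
RNA log2 fold change (horizontal axis) against footprint log2 fold change (vertical axis) of 51 genes, knockdown over control, with SE bars from edgeR; triangles are TOP genes. The SE bars are far longer on the vertical axis, and EIF4B, TPT1 and EIF3E, which fell in RNA, lie above 0 in footprints without being called there. Footprint values are not corrected for reads that grow with gene span.

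Several of the genes with large RNA decreases had few footprints for their RNA in every library. Genes with at least 10 RNA CPM in the controls were ranked within each library by footprint CPM over RNA CPM (0.5 added to the footprints), and the rank is given as a percentile among 9813 genes. EIF4B stood at percentile 6.42 and 1.45 in the knockdown and 0.265 and 0.846 in the control, with 20 and 20 footprint counts in the knockdown libraries, against 12 and 28 in the controls. EEF1G stood at percentile 1.64 and 0.163 in the knockdown and 0.194 and 0.224 in the control, and EIF3L at 4.06 and 3.35 in the knockdown and 2.50 and 2.94 in the control. EEF1A1 had 6 and 6 footprint counts in the knockdown libraries, against 21 and 3 in the controls, although it had 172943 and 144227 RNA counts in the knockdown and 225783 and 228099 in the control, and it was left out of the Ribo-seq test by the count filter. EIF4B, EEF1G and EIF3L were thus at low ranks in the control too. EIF3L had 21 and 40 footprint counts in the knockdown libraries, where 14.8 and 9.86 would be expected from its span. How Ribo-seq reads with several matches were treated is not given in the sources. A low rank can therefore not be read as low translation, and the part of such reads was not tested. TPT1, which also fell in RNA, stood at percentile 50.8 and 86.1 in the knockdown and 16.5 and 21.8 in the control, and EIF4G1 at 77.2 and 93.5 in the knockdown and 95.9 and 95.8 in the control. Low ranks were not limited to genes whose RNA fell. DENR, whose RNA rose, stood at percentile 4.38 and 7.09 in the control. EIF4E, not called in RNA, stood at 4.84 and 5.51 in the control. Whether low ranks go with RNA decreases was not tested.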

How the data were processed

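The data were 2 deposited tables of whole-number counts per gene symbol, 1 for each assay. Build hg38 and the tools featureCounts, STAR, Bowtie2, Salmon and Trim Galore are named in the submitters' processing notes. Their roles, versions and annotation, and the treatment of reads with several matches, are not given in the sources. Counting over whole genes or shared reads would affect hosts of small RNAs and genes with near-identical copies. Per the labels' protocols, RNA-seq used a stranded total RNA kit, and Ribo-seq used RNase I digestion, single ribosomes from a size column and rRNA depletion.

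Counts were tested per gene over the whole table with edgeR 4.0.16 in R 4.3.3 (quasi-likelihood F test, TMM, filterByExpr with a minimum count of 10 and total of 15, Benjamini-Hochberg adjustment over all genes tested, threshold 0.05). Translational efficiency was the assay-by-condition interaction over all 8 libraries, with TMM within each assay. Its dispersion is shared by both assays, and its SE had a median of 0.456 over these genes, against 0.586 for footprints fitted alone. Its p-values may therefore be too small. SE were the absolute log2 fold change over the square root of F. The scripts were tested on simulated data. limma 3.58.1 and DESeq2 1.42.0 served as alternatives, beside RLE scaling, other count filters, a replicate block, scaling over well-expressed genes and leaving out each library. Positions, spans and starts came from RefSeq tables (GRCh38.p14), where all 53 genes were matched; spans and small RNA genes were compared without strand.

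The genes, roles and lists were chosen with earlier results of these data known, so no list was tested as a set. Values per library are given for genes called in RNA-seq with an absolute log2 fold change of at least 0.5, the 2 genes of each role with the smallest p, those called or with the 2 smallest p in Ribo-seq or translational efficiency, and the 3 regulators with the smallest p in RNA-seq, of which 1 is not reported here; other genes given per library were chosen after their values were seen.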

Additional observations from a re-analysis of the deposited data

How the results depend on the processing

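RNA calls of the 53 genes kept within 1.5 times of 12 lower and 15 higher under RLE scaling, both count filters, DESeq2 and limma-voom. Tested against a 1.5-fold change, 3 were lower and 1 higher, against 1.13% and 0.469% of all genes tested. Of these, eIF3 subunits gave 1 and 0, initiation factors other than eIF3 1 and 1, elongation and release factors 0 and 0, TOP genes 2 lower, and genes outside TOP 1 and 1. The replicate numbers were not shown to pair the libraries: same-numbered deviations from the group means correlated at -0.06 in RNA-seq and 0.11 in Ribo-seq over 2 pairs. With a replicate block, 8 genes rose in RNA-seq, all outside TOP (2 eIF3 subunits, 0 elongation and release factors), 5 fell in Ribo-seq (EIF3F, EIF1AX, EIF2B4, PABPC1 and PABPC4) and 0 were called in translational efficiency. When 1 library was left out, RNA calls lay between 7 and 19 lower and 5 and 23 higher. They lay between 3 and 4 lower and 1 and 7 higher in eIF3, 1 and 5 lower and 3 and 12 higher in other initiation factors, 2 and 6 lower and 0 and 4 higher in elongation and release factors, 6 and 12 lower and 0 and 1 higher in TOP genes, and 1 and 7 lower and 5 and 22 higher outside TOP. The RNA median log2 fold change then lay between -0.018 and 0.035 over all 53 genes, 0.044 and 0.25 over eIF3, 0.029 and 0.13 over other initiation factors, -0.30 and -0.11 over elongation and release factors, -0.46 and -0.42 over TOP genes and 0.042 and 0.19 outside TOP. Ribo-seq calls of the class were 0 lower and 0 higher in each such fit, and translational efficiency calls lay between 0 and 21 lower and 0 and 4 higher. With at least 50 counts in every library, 0 of 26 genes fell in Ribo-seq and 1 rose (EIF3E, 1.80), against 2.73% and 12.3% of all genes tested. With this filter 1 fell in translational efficiency, against 4.76% lower and 6.59% higher over all genes tested. With scaling over genes of at least 10 RNA CPM, 0 fell and 0 rose in Ribo-seq, against 0.202% and 8.08% of all genes tested. The median log2 fold change there became 0.30 over all genes tested, against 0.04 with the scaling used. In translational efficiency 2 fell with RLE, 7 fell and 2 rose with DESeq2, 3 fell with limma-voom, and 1 fell and 1 rose with limma-voom weighted by assay. Over all genes tested, the shares lower and higher were 1.09% and 2.91%, 6.34% and 9.53%, 1.69% and 4.65%, and 0.61% and 2.1%, in that order. The cause of these differences was not tested.

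Values that were not called changed sign in places. In Ribo-seq EEF1G was at -0.13 and EIF4G2 at -0.019 with limma-voom, and ETF1 at 0.00064 with scaling over well-expressed genes. In translational efficiency RACK1 was at -0.044 with limma-voom, -0.048 with weights by assay and -0.054 with the replicate block. When 1 library was left out, the Ribo-seq log2 fold change lay between -1.07 and 0.074 for EIF5, -0.40 and 0.83 for EIF4B, -0.80 and 0.76 for EEF1G, -1.29 and 0.18 for RACK1, -0.27 and 1.23 for TPT1 and -0.51 and 0.44 for EIF4G2. In translational efficiency it lay between -0.75 and 0.59 for RACK1, -0.050 and 1.65 for EEF1G, -0.72 and 0.095 for EIF4G2 and -0.55 and 0.35 for PDCD4. Of the 51 genes tested in Ribo-seq, 26 had at least 50 counts in every library, and the spread between libraries was large also in genes with many counts.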
